A study of Ciona robusta with 12 samples.

Results

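Fgf9/16/20 (KH.C2.125) and Fgf8/17/18 (KH.C5.5) are secreted fibroblast growth factors of the tunicate Ciona robusta. They were taken by identifier, as 2 of the 15284 gene models measured, to follow when each ligand transcript was present and how it responded to inhibition of the pathway it activates. RNA sequencing was done on whole embryos, with RNA from 300 embryos in each of 12 libraries. Embryos grown in artificial seawater at 21 °C were given U0126 or the carrier DMSO (1:1000) at the 32-cell stage. Collection at 64 or 112 cells gave 4 groups of 3 replicates. The U0126 dose stands as 4 mM in the labels; its unit could not be checked. No transgene, mutation or selected line is named, and U0126 embryos differ from DMSO embryos in the inhibitor alone as far as the labels go.

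Fibroblast growth factors bind a receptor tyrosine kinase, which acts through Ras and Raf on the kinase MEK. MEK in turn activates ERK, and ERK acts on transcription factors of the Ets family. In the early ascidian embryo Fgf9/16/20 is made in vegetal cells during cleavage and induces neural and notochord fates in neighbouring cells. Fgf8/17/18 is the Ciona member of the Fgf8 group, a group used in vertebrates to pattern the nervous system. U0126 blocks MEK, below the receptor, and so stops the ERK branch of the signal.

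The libraries held 10623872 to 15956670 reads over genes. DMSO replicate 3 at 112 cells stood apart. In 210 of 11650 genes its normalized count + 1 was at most 0.25 of that in any other library, which was so for 0 to 4 genes in each of the others. Results on that group are therefore also given without it. Nothing in the labels says what a replicate number shares, but libraries with the same number deviated together, so fits with the replicate number as a block are given where they changed a call. The design text calls the replicates biological, but no clutch is named, and p-values measure the spread between these samples.

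Both ligand transcripts were more abundant in embryos exposed to U0126, at both stages and in every replicate pair. In the main single-stage fits, made without the replicate block, only the rise of Fgf8/17/18 at 112 cells passed the test over all genes. Averaged over the stages, Fgf9/16/20 rose 1.66-fold and Fgf8/17/18 rose 2.68-fold. Their timing differed. Fgf8/17/18 rose from 64 to 112 cells under either treatment, whereas the Fgf9/16/20 levels of DMSO embryos overlapped between the stages. Whole embryos were sequenced, so more cells making a transcript and more transcript per cell cannot be told apart.

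Fgf9/16/20, the early inducing ligand, was read 357 to 938 times per library. At 64 cells the DMSO libraries held 528, 551 and 592 normalized counts (reads divided by the authors' size factor for the library), and the U0126 libraries 704, 811 and 835. At 112 cells the DMSO libraries held 492, 484 and 391 normalized counts and the U0126 libraries 944, 802 and 915. Every U0126 library was above every DMSO library of its stage, and the lowest value at 112 cells was that of DMSO replicate 3. Group means were 557 ± 32.4 and 783 ± 69.8 at 64 cells and 456 ± 56.2 and 887 ± 74.6 at 112 cells (SD, n = 3 each).

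Fgf8/17/18 was read less often, 18 to 238 times per library, so counting error weighed more. At 64 cells the DMSO libraries held 16.8, 35.1 and 29.0 normalized counts and the U0126 libraries 50.3, 55.4 and 74.3. At 112 cells the DMSO libraries held 73.5, 57.2 and 74.5 normalized counts and the U0126 libraries 186, 214 and 256. Here too no U0126 library overlapped a DMSO library of its stage. Group means were 27.0 ± 9.31 and 60.0 ± 12.6 at 64 cells and 68.4 ± 9.76 and 219 ± 35.1 at 112 cells (SD, n = 3 each). The lowest value, 18 reads in DMSO replicate 1 at 64 cells, has an exact 95% Poisson interval of 10.7 to 28.4 reads. The interval covers counting error only, as PCR copies of a molecule cannot be recognised without molecular identifiers. Counting alone gives a coefficient of variation of 19.5% in the DMSO libraries at 64 cells, where 34.5% was seen, and of 11.9% in those at 112 cells, where 14.3% was seen.

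**Figure D1:**
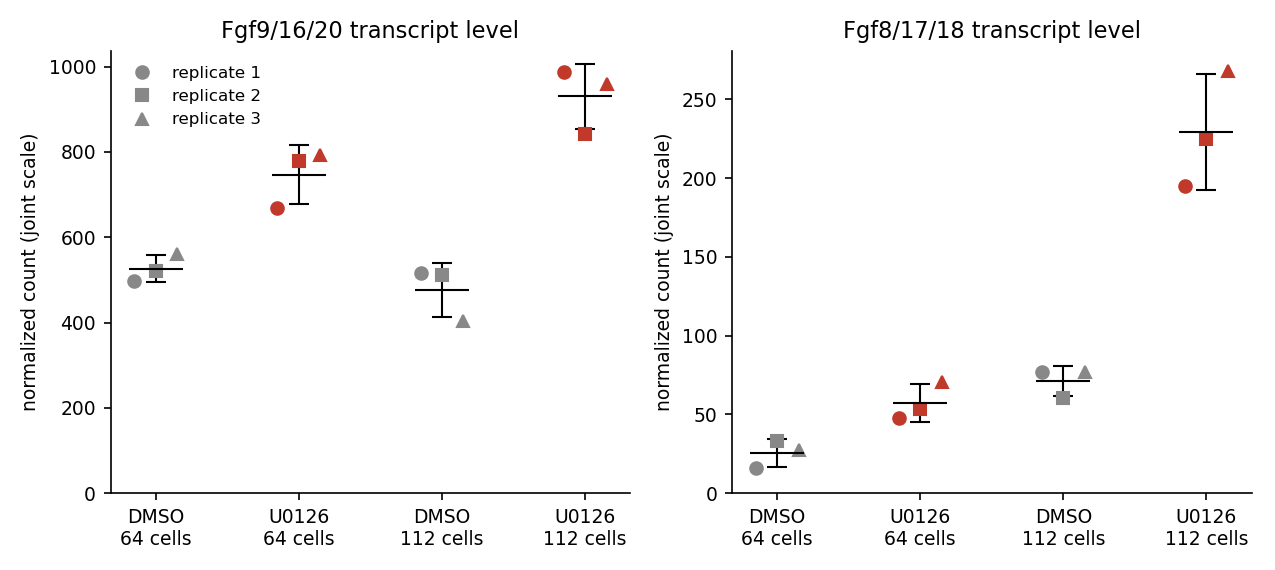
Level of each ligand transcript in all 12 libraries, as normalized counts after the libraries of both stages were put on a joint scale, with DMSO in grey and U0126 in red. Symbols mark the replicate numbers, the long bar is the group mean and the whiskers are 1 SD (n = 3); the axes start at 0 and differ between panels, and the U0126 points lie above the DMSO points of the same stage in both.

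The first comparison asked whether the ligand transcripts already responded at 64 cells, soon after exposure began. Fgf9/16/20 was 1.33, 1.47 and 1.41 times as high with U0126 in replicate pairs 1, 2 and 3, a log2 fold change of 0.49 (SE 0.12, 95% interval 0.20 to 0.77). Fgf8/17/18 was 2.99, 1.58 and 2.56 times as high, a log2 fold change of 1.17 (SE 0.36, 95% interval 0.33 to 2.005). The pairs of Fgf9/16/20 lay close together and those of Fgf8/17/18 spread more widely. Neither ligand passed the test over all genes (limma adjusted p = 1.00 for both). No gene did so in the upward direction at this stage (0% of 10792 genes tested, with 96 genes at an unadjusted limma p under 0.05 in either direction), while edgeR called 0 and DESeq2 4 genes higher.

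With the replicate block both ligands were called at 64 cells, with a limma adjusted p of 9.55e-08 for Fgf9/16/20 and 9.89e-06 for Fgf8/17/18, among 75 genes called higher (0.695% of those tested). That fit shared 1 estimate of the spread among genes of equal level, and its small p-values rest on this. edgeR with the same block gave adjusted p-values of 3.29e-07 and 3.14e-05. It used the same libraries and also draws on the spread over genes, so it is not an independent check.

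At 112 cells both fitted differences were larger, but their growth from 64 cells did not pass the direct test given below. In pair 1 the fold of Fgf8/17/18 was smaller, 2.53 against 2.99 at 64 cells. Fgf9/16/20 was 1.92, 1.66 and 2.34 times as high with U0126 in the 3 pairs, a log2 fold change of 0.96 (SE 0.16, 95% interval 0.58 to 1.35). It lay just outside the threshold (limma adjusted p = 0.0640, or 0.116 with the replicate block). The widest of these pairs holds DMSO replicate 3, and without that library the log2 fold change was 0.86 (limma adjusted p = 0.0356). That fit called 57 genes higher (0.514%). The adjusted p was 0.234 and 0.254 without DMSO replicates 1 and 2, and 0.341, 0.191 and 0.345 without U0126 replicates 1, 2 and 3, all by limma. Fgf8/17/18 was 2.53, 3.74 and 3.43 times as high, a log2 fold change of 1.66 (SE 0.23, 95% interval 1.11 to 2.21). Its rise passed the test (limma adjusted p = 0.0349), and it was 1 of 23 genes called higher (0.203% of 11315).

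The call of Fgf8/17/18 at 112 cells was a close one. The limma adjusted p was 0.0607 with the replicate block, under which 4 genes were called higher (0.0354%), and 0.0510 with reads scaled to equal totals. It was 0.134 and 0.167 without DMSO replicates 1 and 2, and 0.127, 0.153 and 0.209 without U0126 replicates 1, 2 and 3. In the same order, these fits called 1, 0, 0, 3 and 0 genes higher, so few genes passed upward in them. Without DMSO replicate 3 the limma adjusted p was 0.0297, with a log2 fold change of 1.73, and 57 genes were called higher (0.514%). Over these 6 reduced fits the log2 fold change ran from 1.54 to 1.77.

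Taking both stages in one fit of all 12 libraries, both ligands rose with U0126. The mean log2 fold change of Fgf9/16/20 was 0.73 (SE 0.10, 95% interval 0.52 to 0.95, limma adjusted p = 0.00381). That of Fgf8/17/18 was 1.42 (SE 0.20, 95% interval 0.97 to 1.87, limma adjusted p = 0.00618). They were among 42 genes called higher (0.361% of 11650), and both remained called with the block (adjusted p = 0.00381 and 0.00215 by limma, 86 genes higher, 0.738%). They also passed whichever library was left out, with limma adjusted p-values of 0.00254 to 0.0179 for Fgf9/16/20 and 0.00685 to 0.0274 for Fgf8/17/18. Without DMSO replicate 3 at 112 cells the mean log2 fold changes were 0.68 and 1.45. An exact permutation test of each ligand alone, two-sided with labels exchanged within the stages, gave p = 0.005, the smallest that its 400 arrangements can give (0.006 after adjustment over 6 such tests). That test does not use the replicate pairs. The difference was upward in 6 of 6 replicate pairs for each ligand, and exact sign flips of these pairs gave p = 0.03125 for each. That is the smallest p that 64 arrangements can give. The pairs share replicate numbers across the stages, so they may not be independent.

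**Figure D2:**
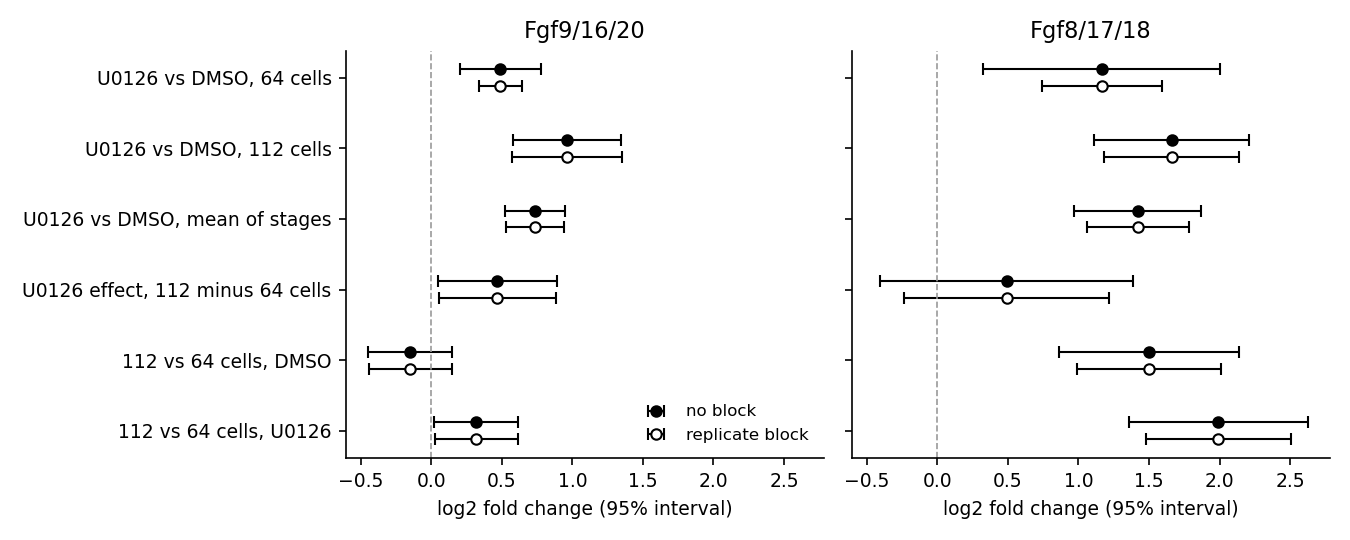
Fitted log2 fold change of each ligand for the 6 contrasts, with 95% intervals from limma; filled points are fits without and open points fits with the replicate block. The U0126 intervals lie above 0 for both ligands at both stages, and the stage change in DMSO embryos spans 0 for Fgf9/16/20 (-0.45 to 0.15) but not for Fgf8/17/18 (0.87 to 2.14).

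Set beside all genes, the changes of the ligands were towards the upper end. All 3 U0126 libraries were above all 3 DMSO libraries for both ligands at each stage, as they were for 1.16% of the genes tested at 64 cells, 12.1% at 112 cells and 0.504% at both stages (54 of 10704). Of all genes tested, 0.232% at 64 cells and 0.592% at 112 cells had a log2 fold change at least that of Fgf8/17/18. For Fgf9/16/20, whose change was smaller but whose replicates were closer, these shares were 1.62% and 3.16%. The estimates reached those of Fgf8/17/18 at both stages in 5 genes, itself included (0.0467%), and those of Fgf9/16/20 in 39 genes (0.364%).

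**Figure D3:**
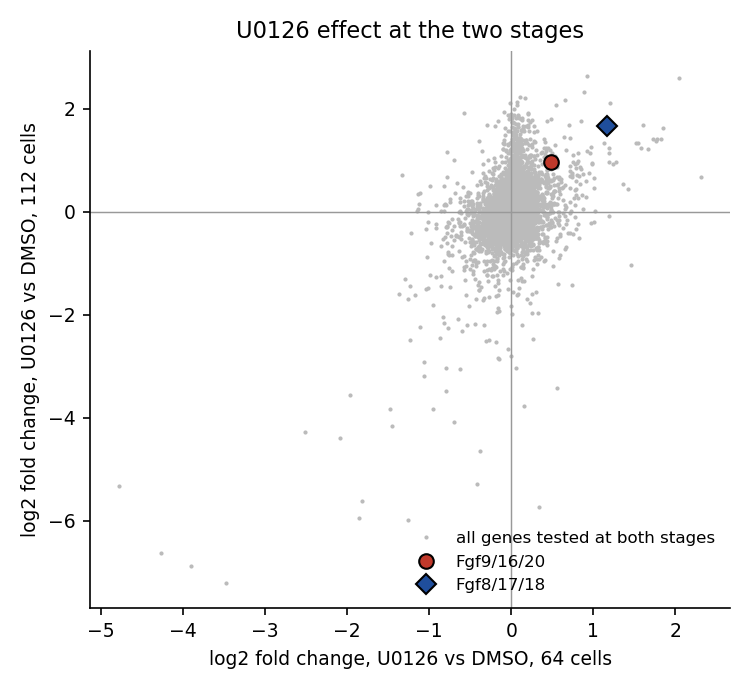
Log2 fold change of U0126 against DMSO at 64 cells (horizontal) and at 112 cells (vertical) for the 10704 genes tested at both stages, each a grey dot; the stages share no library. Fgf9/16/20 (circle) lies at 0.49 and 0.96, and Fgf8/17/18 (diamond) at 1.17 and 1.66, both to the upper right of 0.

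Timing was compared between the stages on a joint scale of all 12 libraries. Stage coincides with the deposited table, so a batch that goes with the table and the stage cannot be told apart. In DMSO embryos Fgf9/16/20 was at 526 ± 32.1 normalized counts at 64 cells and 477 ± 63.9 at 112 cells (SD, n = 3 each), a log2 change of -0.15 (SE 0.14, 95% interval -0.45 to 0.15, limma adjusted p = 0.569). Without DMSO replicate 3 at 112 cells the log2 change was -0.03. The ranges of these groups overlapped, 498 to 561 at 64 cells against 403 to 516 at 112 cells. The interval leaves out a fall of more than 1.37-fold and a rise of more than 1.11-fold. In U0126 embryos it was at 746 ± 68.8 and 930 ± 76.8 normalized counts, a log2 change of 0.32 (SE 0.14, limma adjusted p = 0.260), which did not pass the test although all 3 libraries at 112 cells were above those at 64 cells, as they were for 12.1% of genes.

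Fgf8/17/18 rose with stage under both treatments. On the joint scale it went from 25.5 ± 8.80 to 71.4 ± 9.54 normalized counts in DMSO embryos (SD, n = 3 each), a 2.83-fold rise (SE 0.29 on the log2 scale, limma adjusted p = 0.00763). Without DMSO replicate 3 at 112 cells the rise was 2.72-fold (limma adjusted p = 0.0211). In U0126 embryos it went from 57.2 ± 11.96 to 229 ± 36.9 normalized counts, a 3.98-fold rise (SE 0.29 on the log2 scale, limma adjusted p = 0.00115). Of 11650 genes, 627 (5.38%) were called higher at 112 cells in DMSO and 571 (4.90%) in U0126 embryos, so such calls were common. All 3 libraries at 112 cells lay above all 3 at 64 cells for Fgf8/17/18 under each treatment, as for 12.2% of genes in DMSO and 12.1% in U0126 embryos. With the block, under which both rises of Fgf8/17/18 remained called, 1153 (9.90%) and 969 (8.32%) were.

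In order of level on the joint scale, Fgf8/17/18 was lowest in DMSO embryos at 64 cells, then in U0126 embryos at 64 cells, then in DMSO embryos at 112 cells, and highest in U0126 embryos at 112 cells. The middle groups overlapped, with 47.8 to 70.6 normalized counts in U0126 embryos at 64 cells and 60.4 to 77.0 in DMSO embryos at 112 cells. Fgf9/16/20 was ordered by treatment instead, with both DMSO groups, which overlapped, below both U0126 groups. The U0126 groups did not overlap, with 668 to 794 normalized counts at 64 cells and 843 to 988 at 112 cells.

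Whether the response to U0126 grew between the stages was tested directly. Exposure began at the 32-cell stage in all groups, so embryos at 112 cells had been exposed longer. Stage and length of exposure cannot be told apart in this difference, nor in the stage change of U0126 embryos. The log2 fold change was larger at 112 cells by 0.47 for Fgf9/16/20 (SE 0.19, 95% interval 0.04 to 0.89) and by 0.49 for Fgf8/17/18 (SE 0.41, 95% interval -0.41 to 1.39). Neither difference passed the test (limma adjusted p = 0.999 for both), and 1 gene was called in this direction (0.00858%). Without DMSO replicate 3 at 112 cells the differences were 0.35 for Fgf9/16/20 and 0.55 for Fgf8/17/18. That of Fgf8/17/18 moved most with the DMSO libraries at 64 cells, to 0.79 without replicate 1 and 0.28 without replicate 2. The interval for Fgf8/17/18 still holds a difference of more than 2-fold in the response.

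The ligands were last compared with each other through the ratio of their counts within a library, which does not depend on how libraries are scaled. The log2 ratio tested below was taken after adding 1 to each joint-scale count. It therefore does depend on the scaling and on the value added. Transcript lengths were not at hand, so only changes of the ratio are read. Fgf9/16/20 counts were 31.4, 15.7 and 20.4 times those of Fgf8/17/18 in DMSO embryos at 64 cells and 13.98, 14.6 and 11.2 times in U0126 embryos. At 112 cells the ratios were 6.69, 8.47 and 5.25 in DMSO and 5.07, 3.75 and 3.58 in U0126 embryos. The ratio was thus lower with U0126 at each stage and lower at 112 cells under each treatment, with no overlap in any of these comparisons.

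On the log2 scale the ratio differed between U0126 and DMSO embryos by -0.68 at 64 cells and by -0.70 at 112 cells, a mean of -0.69 (exact permutation test within the stages, two-sided, p = 0.005, adjusted 0.006; lower in 6 of 6 pairs). Fgf8/17/18 therefore rose more than Fgf9/16/20 under U0126. Between the stages the log2 ratio differed by -1.65 in DMSO and -1.67 in U0126 embryos, a mean of -1.66 (exact permutation test within the treatments, two-sided, p = 0.005, adjusted 0.006; lower in 6 of 6 pairs). Each p is the smallest that 400 arrangements can give. Exact sign flips of the replicate pairs gave 0.03125, the smallest of 64 arrangements, for both. These pairs share replicate numbers as well. Without DMSO replicate 3 at 112 cells the mean differences were -0.77 and -1.58.

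**Figure D4:**
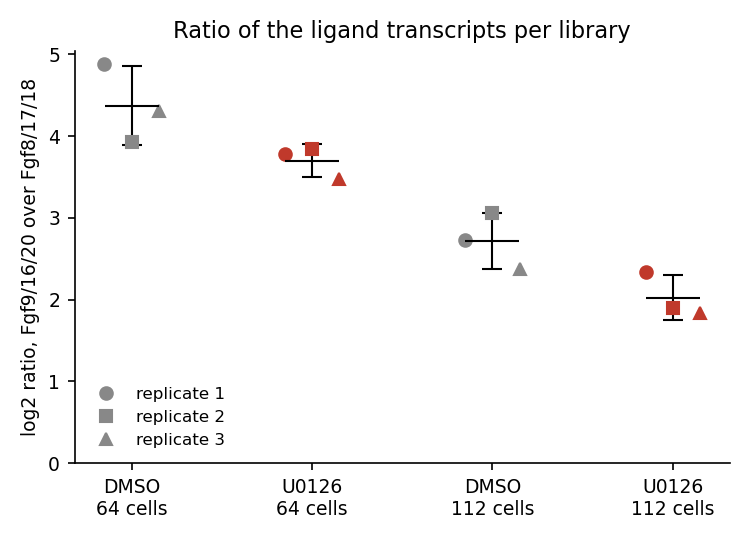
Log2 ratio of Fgf9/16/20 over Fgf8/17/18 in each of the 12 libraries, from joint-scale counts + 1. DMSO is in grey and U0126 in red, with the group mean as a long bar and 1 SD as whiskers (n = 3). The group means step down from 4.37 in DMSO embryos at 64 cells to 3.70, 2.72 and 2.02 in the groups to the right.

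The genes most like each ligand were sought among 11649 others by Pearson's r of the log2 level over the 12 libraries, a description without a test, since the libraries share groups and replicate numbers. For Fgf8/17/18 the closest was KH.C9.872, with r = 0.97. Its joint-scale means were 34.5 ± 15.6 and 125 ± 46.3 normalized counts in DMSO and U0126 embryos at 64 cells, and 216 ± 42.7 and 660 ± 48.9 at 112 cells (SD, n = 3 each). Like Fgf8/17/18 it was higher with U0126 and at the later stage, a likeness that the choice by r favoured. KH.L119.26 came next with r = 0.95, at low levels, with 0.880 ± 0.860 and 6.76 ± 3.72 normalized counts at 64 cells and 8.35 ± 2.46 and 30.6 ± 14.6 at 112 cells. Its mean U0126 effect over both stages was not called (limma adjusted p = 0.0959). In all, 36 genes had an r over 0.9 with Fgf8/17/18.

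For Fgf9/16/20 no gene reached an r of 0.9. KH.C3.279 was closest with r = 0.899, and its means were 2454 ± 218 and 2751 ± 176 normalized counts at 64 cells and 2390 ± 135 and 2851 ± 176 at 112 cells. KH.L124.5 followed with r = 0.894. Their U0126 changes were smaller than that of the ligand, with mean log2 fold changes over both stages of 0.21 for each (limma adjusted p = 0.563 for both).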

How the data were processed

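Per the file headers, the authors deposited for each stage a table of 15284 gene models with KH2012 identifiers, holding a signal (read counts normalized to library size, never negative) and regularized log2 values. The submitters' processing notes name TopHat2 2.9.8b and DESeq 1.8.1. How reads were counted, with which strand setting and on which build is not given in the sources used here, so reads of overlapping, antisense or near-identical genes may be shared. The ligand names are those under which the identifiers were chosen. The gene table at hand pairs none of these identifiers with names, so no other pathway gene was named and no sequence is shown.

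In every library, dividing by the smallest value gave whole numbers for 100% of genes (within 0.01), and reads were recovered by division (10623872 to 15956670 per library). limma 3.58.1 in R 4.3.3 tested log2(normalized count + 1) with a variance trend, for genes with at least 10 normalized counts in at least 3 libraries, and a call needed an adjusted p (Benjamini-Hochberg) under 0.05. This log scale understates the fold changes of low genes. Each stage was fitted on its own 6 libraries. Comparisons across stages used all 12, rescaled by median-of-ratios factors. edgeR 4.0.16 (TMM) and DESeq2 1.42.0 on recovered reads, other pseudocounts, no filter, a replicate block and leaving out each library were alternatives. The limma step without the block was tested on simulated counts that held no replicate effect. The mean U0126 effect over both stages and the stage change in U0126 embryos were not simulated. The simulated test does not bear on the calls that changed with the block. Permutation tests were exact, in Python 3.11.15.

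Same-number libraries correlated in their deviations from the group means (r across genes 0.451 to 0.833 within and 0.380 to 0.790 across stages). The numbers were therefore taken, from the data, to pair the samples in the block fits, the sign flips and the folds of replicate pairs. The main limma fits and the permutation tests did not use the pairs. Different numbers gave r of -0.527 to -0.034. Deviations sum to 0 within a group, so these negative values follow in part from the calculation and are not separate evidence. No replicates were duplicates (chi-square per degree of freedom 17.8 to 120, about 1 under sampling noise). Members, lists and tests were chosen with earlier results of these data known. The likeness rule named the 2 genes with the highest r for each ligand.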

Additional observations from a re-analysis of the deposited data

How the results depend on the processing

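Both ligands kept their direction for U0126 against DMSO, at each stage and over both, under every alternative run (16 for each stage, 22 for the mean). The mean effect and the Fgf8/17/18 stage changes also kept their calls, and so did the ligand ratio in 16 alternatives for each comparison (log2 -0.80 to -0.55 for U0126, -1.77 to -1.49 for stage). The Fgf9/16/20 stage changes and both differences between the stages stayed uncalled in 20 alternatives each. The single-stage calls did change. At 64 cells the replicate block called Fgf9/16/20 (log2 0.49) and Fgf8/17/18 (log2 1.17), as did edgeR with the block (0.48 and 1.15). Leaving out a library gave 0.44 to 0.56 and 0.87 to 1.38, with neither called. At 112 cells DESeq2 called Fgf9/16/20 (0.95, 77 genes higher, 0.681%). The joint fit of all 12 libraries called it too (0.97, 26 genes higher, 0.223%). It was also called without DMSO replicate 3 (0.86, 57 genes higher, 0.514%), and it ran from 0.86 to 1.03 with a library left out. Fgf8/17/18 there lost its call with the replicate block (1.66), edgeR with the block (1.64) and reads scaled to equal totals (1.52). It also lost its call when any single library except DMSO replicate 3 was left out, and ran from 1.54 to 1.77 in those 6 fits. Equal totals moved the median log2 fold change of all genes at 112 cells to -0.15, and both ligands stayed higher (0.82 for Fgf9/16/20). The authors' regularized log2 values, which shrink low genes, gave 0.25 and 0.15 at 64 cells and 0.58 and 0.84 at 112 cells for Fgf9/16/20 and Fgf8/17/18. Equal totals, edgeR with the block, the regularized values and the permutation and sign-flip tests of each ligand were added after the data were seen. The causes of these shifts were not tested.

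Counts over all genes moved more. At 64 cells 2 genes were called, against 1 with a pseudocount of 8, without a filter, with edgeR or with the regularized values, 5 in the joint fit, 17 with DESeq2, 146 with the replicate block and 132 with edgeR and the block (0 to 2 with a library left out). At 112 cells 83 were called, against 219 with DESeq2, 49 with the block and 54 with edgeR and the block (16 to 119). Between the stages it was 884 in DMSO, against 2035 with the block and 2044 with edgeR and the block (567 to 856), and 791 in U0126, against 1764 and 1691 (502 to 1188). For the difference of the U0126 effect it was 18, against 31 with a pseudocount of 8 or the block, 10 without a filter and 50 with DESeq2 (0 to 9). For the mean effect it was 107, against 199 with DESeq2, 211 with the block and 197 with edgeR and the block (66 to 104). Reads of Fgf8/17/18 were fewest at 64 cells, at 18 to 72 per library. Counting alone gave a coefficient of variation of 19.5% in the DMSO libraries there, below the 34.5% seen.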
